A study of Mus musculus with 10 samples.

Results

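Chromatin accessibility was described at 9 genes of astrocytes and radial glia: Gfap, Vim, Slc1a2, Slc1a3, Aqp4, Gjb6, S100b, Aldh1l1 and Fabp7. The genes were chosen by name, and every peak in the 4 deposited lists was taken whose summit lay in the gene or within 5 kb of it, by the RefSeq gene table of GRCm38.p6. That gave 51 peaks of 130103 in control females, 47 of 104316 in deleted females, 41 of 101322 in control males and 36 of 88159 in deleted males. Joined wherever they shared at least 1 bp, these peaks formed 59 loci of the 150516 found across the lists.

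The assay was ATAC-seq, in which a transposase inserts adapters into open DNA, on 10 libraries of neural stem cell lines of the strain C57BL/6. All lines came from Smchd1 fl/fl embryos at E14.5, and the labels call the groups Smchd1 del/del (3 female and 2 male libraries, here deleted) and Smchd1 fl/fl (3 female and 2 male libraries, here control). Smchd1 encodes a chromatin protein of the SMC family that takes part in X inactivation and imprinting. Per the labels' protocols, a retrovirus brought in Cre recombinase with a puromycin marker, selection began after 24 h and cells were taken at 7 days. This text accompanies control and deleted samples alike, and what vector the controls received is not stated. The male samples carry a free-text description that reads female, while their titles and sex field read male, and the latter were followed. Peak lists do not show whether the floxed part of Smchd1 was lost, so the genotype labels were not checked.

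There is 1 deposited peak list for each group, made from 1 alignment of its libraries. The values below therefore carry no replicate error, and none of the differences between groups could be tested. Tags after filtering ranged from 74674218 in deleted males to 144613215 in control females, and in each sex the control list was the deeper. Levels were therefore compared in lists of equal length, the 88159 strongest peaks of each by the authors' −log10 q. The fold enrichment given with a peak is the authors' ratio of its height over the local background, and it was used to rank peaks within a list. Libraries of whole cultures were measured, and fewer cells with an open site cannot be told apart from a less open site in every cell.

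Radial glia are the stem cells of the embryonic brain. They carry Vim, Fabp7 and Slc1a3 long before astrocytes form, and later glia add Gfap, Aqp4, Slc1a2, Gjb6, S100b and Aldh1l1. Gfap is a standard example of a late glial gene, whose activation depends on JAK-STAT and BMP signals, on NFI factors and on loss of DNA methylation in its promoter.

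The promoters of 6 genes, with and without a peak at the annotated start, are printed here as the 250 bases before that start, from the RefSeq promoter table of GRCm38.p6. Gfap (chr11:102897201-102897450, minus strand) and Slc1a2 (chr2:102706188-102706437, plus strand) had no peak summit within 1 kb of this start in any list, although Slc1a2 had one in all 4 lists at the outer end of its longer gene record. Slc1a3 (chr15:8710808-8711057, minus), S100b (chr10:76253586-76253835, plus), Fabp7 (chr10:57784673-57784922, plus) and Vim (chr2:13574061-13574310, plus) had one in all 4 lists. Capitals mark matches on either strand to a STAT site (TTCNNNGAA), an NFI core site (TTGGC), a SOX site (ACAANG) or a TATA box (TATAAA).
Gfap: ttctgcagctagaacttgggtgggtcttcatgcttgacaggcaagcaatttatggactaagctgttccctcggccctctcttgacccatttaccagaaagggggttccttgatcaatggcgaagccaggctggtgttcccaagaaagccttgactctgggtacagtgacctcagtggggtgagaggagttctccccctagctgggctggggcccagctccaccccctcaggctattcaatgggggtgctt
Slc1a2: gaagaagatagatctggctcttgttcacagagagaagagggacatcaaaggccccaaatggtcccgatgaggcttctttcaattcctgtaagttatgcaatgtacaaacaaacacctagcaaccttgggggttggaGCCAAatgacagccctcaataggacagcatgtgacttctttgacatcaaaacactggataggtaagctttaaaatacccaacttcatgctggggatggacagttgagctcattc
Slc1a3: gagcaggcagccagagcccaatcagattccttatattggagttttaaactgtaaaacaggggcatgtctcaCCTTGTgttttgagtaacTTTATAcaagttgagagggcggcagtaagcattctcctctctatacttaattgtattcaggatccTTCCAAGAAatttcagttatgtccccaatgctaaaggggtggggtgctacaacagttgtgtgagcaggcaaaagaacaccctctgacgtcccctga
S100b: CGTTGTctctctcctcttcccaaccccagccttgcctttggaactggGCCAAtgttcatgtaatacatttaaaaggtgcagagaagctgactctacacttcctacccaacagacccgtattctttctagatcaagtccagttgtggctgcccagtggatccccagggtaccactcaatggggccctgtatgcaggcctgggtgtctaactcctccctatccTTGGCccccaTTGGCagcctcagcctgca
Fabp7: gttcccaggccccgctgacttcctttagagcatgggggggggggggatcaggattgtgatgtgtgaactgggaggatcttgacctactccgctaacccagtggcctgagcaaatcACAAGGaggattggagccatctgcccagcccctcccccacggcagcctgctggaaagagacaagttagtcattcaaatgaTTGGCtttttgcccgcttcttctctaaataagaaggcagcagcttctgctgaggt
Vim: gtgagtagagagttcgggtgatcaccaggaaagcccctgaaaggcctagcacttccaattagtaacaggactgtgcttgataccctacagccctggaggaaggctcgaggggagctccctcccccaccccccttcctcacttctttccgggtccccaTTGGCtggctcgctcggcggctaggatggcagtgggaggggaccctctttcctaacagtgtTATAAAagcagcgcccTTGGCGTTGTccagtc

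The stretches differ in what they hold. The Gfap stretch has none of the 4 motifs, although a STAT match, TTCCAGGAA, begins 2 bases before its start and runs on into the transcribed part. The Slc1a3 stretch has a STAT match, TTCCAAGAA, whose first base lies 96 bases before the start. The Slc1a3 stretch also has a SOX match and, on the other strand, a TATA match that begins 161 bases before the start. Slc1a2 has 1 NFI core site. S100b has 3 NFI core sites, of which a pair lies within 29 bases of the start, and a SOX match at its outer end. Vim has 2 NFI core sites, the second overlapping a SOX match by 1 base, and a TATA box that begins 32 bases before the start. Fabp7 has 1 NFI core site and 1 SOX match. A match is a run of letters and not a measured binding site. In windows of 300 bases, 250 before to 50 after the start, the 8 genes found in the table (there is no entry for Aqp4) held a STAT match in 2 cases, against 8.30% of all 32851 promoters. NFI core sites were in 4 of 8 against 46.7%, SOX matches in 4 of 8 against 41.2% and TATA boxes in 2 of 8 against 13.6%. Of the other motifs searched, an RBPJ match (TGGGAA) was in 4 of 8 against 25.6%, an E-box (CANNTG) in 6 of 8 against 72.3% and a GC box (GGGCGG) in 2 of 8 against 35.7%. An AP-1 match (TGANTCA, in 7.81% of all), a POU octamer (ATGCAAAT, 1.74%), a CRE (TGACGTCA, 1.79%), the full NFI palindrome (0.0365%) and the SOX form ACAAAG (18.7%) were in none of the 8 windows.

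All 8 promoters held fewer than the median number of CpG, the dinucleotide that DNA methylation acts on, with Vim and Aldh1l1 close to it. Slc1a2 held 1 CpG in its 300 bases, Gfap, S100b and Slc1a3 held 3 each, Gjb6 and Fabp7 6 each, Aldh1l1 9 and Vim 11, against a median of 13 for protein-coding promoters. Fewer CpG than Vim were found in 45.3% of protein-coding promoters, and fewer than Aldh1l1 in 41.1%. Across protein-coding starts, the share with a summit within 1 kb in all 4 lists followed the CpG number. It was 10.4% of 6035 starts with 0 to 4 CpG, 41% of 3161 with 5 to 9, 79.6% of 2110 with 10 to 14 and 96.4% of 7640 with 20 or more. S100b and Slc1a3 thus had a start-site peak in a class where most starts had none, and Gfap and Slc1a2 had none, as 83.1% of that class. Over the 17491 protein-coding genes of the table, 63.0% had such a peak in all 4 lists and 32.1% in no list, and list by list the share was 65.0% and 65.8% for control and deleted cells of females and 65.0% and 65.5% for those of males. Of the 9 genes, 6 had one in all 4 lists, and Gfap, Slc1a2 and Aqp4 had one in no list. Aqp4, without an entry in the promoter table, was judged at either end of its gene record. Judged by that rule, Slc1a2 had one in all 4 lists, which makes 7 genes. In the equal-length lists, the same 6 genes had it in control and in deleted cells of both sexes.

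**Figure D1:**
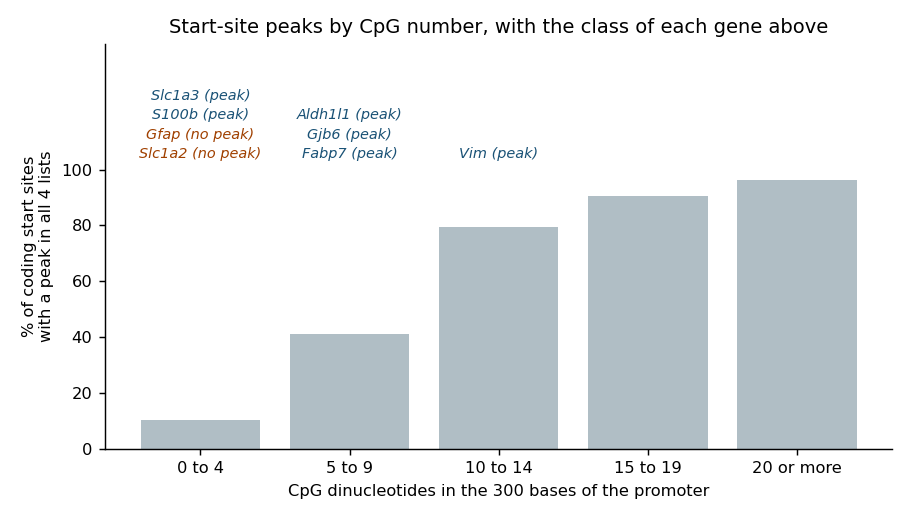
Percentage of protein-coding start sites with a peak summit within 1 kb in all 4 lists (vertical axis) by the number of CpG dinucleotides in the 300-base promoter (horizontal axis), with the 8 genes of the promoter table written above their class. Shares run from 10.4% to 96.4%, and Slc1a3 and S100b have a peak in the class of 10.4%, where Gfap and Slc1a2 have none at the promoter-table start.

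The intermediate filament genes differed at their starts. Gfap (chromosome 11, 102887336 to 102897200), which encodes the filament protein of mature astrocytes, had its strongest locus upstream, 1.36 kb before the start, from 102898282 to 102898975. Its fold enrichment there, given here and below for control before deleted cells, was 4.86 and 4.64 among females and 6.71 and 6.06 among males, with ranks by −log10 q from 12368 to 16660. All 4 lists thus placed this upstream site among their 44079 strongest peaks while giving no peak at the start itself. Among loci with peaks in all 4 lists its percentile was 54.0 and 60.9 in females and 70.8 and 66.3 in males, so the genotypes differed in opposite directions in the sexes. Gfap also had weaker loci 3.79 kb upstream and 4.04 kb inside the gene in all 4 lists, the former with 3.00 and 2.81 among females and 3.34 and 2.57 among males. The percentile of the former was 9.15 and 12.4 in females and 11.9 and 1.25 in males. A peak 8.95 kb inside the gene was in the deposited control female list alone.

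Vim (chromosome 2, 13574311 to 13582826), the filament gene of radial glia and many dividing cells, had a broad locus of 1252 bp over its start. Fold enrichment there was 4.55 and 4.58 among females and 5.11 and 5.43 among males, and ranks lay between 11538 and 14602. The start of Vim was thus open in every group. Among the 68514 loci with peaks in all 4 lists its percentile was 47.1 and 59.6 in females and 47.8 and 57.5 in males, higher in deleted cells by 12.4 and 9.68 points. Ranked by −log10 q the differences were 1.99 and 4.48 points, and by pileup -1.77 and 0.86, so the direction in females turned. Another locus 1.88 kb upstream, from 13572120 to 13572574, had 3.28 and 3.32 among females and 3.58 and 4.09 among males. On the same scale that upstream locus stood at percentiles 15.6 and 27.8 in control and deleted females and 16.7 and 32.3 in males, higher in deleted cells of both sexes. Vim further had loci 1.87 kb inside and 9.54 kb past the start in all equal-length lists. It had weaker peaks 0.67 and 4.38 kb inside in the deposited female lists only, and one 12.2 kb past the start in control females alone. With 4 or 5 peaks in 18.5 kb, Vim was the densest of the 9 genes in every list but that of control males, where S100b was, and at least 96.6% of protein-coding genes had fewer peaks per 10 kb than Vim in each list.

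The glutamate transporter genes, which clear glutamate from synapses, held the most loci. Slc1a3 (chromosome 15, 8634124 to 8710807), already active in radial glia, had 17 loci. The one with the best −log10 q lay inside the gene, 51.0 kb from the start, from 8659393 to 8660674, with fold enrichments of 4.59 and 4.77 among females and 6.07 and 5.71 among males. That locus ranked between 8927 and 14886 in all groups. At the start, a locus 0.338 kb inside the gene had 3.33 and 3.09 among females and 4.72 and 4.12 among males. Its percentile was 16.3 and 20.3 in females, higher in deleted cells, and 41.1 and 32.6 in males, lower. A smaller one at 0.021 kb had 2.75 and 2.92 among females and 3.27 in deleted males, with no peak in control males. The start of Gm31340, another annotated gene, lies within 1 kb of both. Other loci of all 4 lists lay 4.49, 37.7, 38.1 and 46.8 kb inside the gene and 81.4 kb from the start, past its far end.

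A stretch of Slc1a3 near 38 kb from the start held 3 neighbouring loci that differed between genotypes in different directions. The middle one, from 8672528 to 8672873, had the highest mean percentile of the gene, with fold enrichments of 6.27 and 4.75 among females and 6.58 and 5.29 among males. Its percentile was 76.3 and 62.7 in females and 69.2 and 55.8 in males, lower in deleted cells of both sexes. The locus from 8672975 to 8673210 was at percentiles 24.8 and 31.7 in females and 17.4 and 53.5 in males, higher in deleted cells, by 6.89 points in females and 36.1 in males. The remaining one, from 8672254 to 8672444, had a peak in both control lists, with 3.41 in females and 3.35 in males, and in neither deleted list. The other loci of Slc1a3 were weak and uneven. A peak 52.1 kb inside was in every equal-length list but that of deleted females, and one 71.9 kb inside was in deleted females alone. One 78.3 kb from the start was in the equal-length list of deleted females alone, and below the limit in both deposited control lists. Its −log10 q was 6.52 in control and 4.92 in deleted females, with fold enrichments of 2.47 and 2.38. It missed the control female list because the limit there was 6.59, against 4.27 in deleted females. Below the equal-length limit, peaks at 17.5, 52.4, 72.1 and 72.6 kb were in deleted females alone and one at 13.0 kb in control females alone. The peak at 52.4 kb, from 8658348 to 8658502, lies directly beside the locus at 52.1 kb, from 8658565 to 8658859. They were counted apart because they share no base.

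Slc1a2 (chromosome 2, 102658239 to 102790784), the main transporter of mature astrocytes, had 10 loci. Its record in the gene table begins 48.2 kb before the start used in the promoter table, and the locus with the best −log10 q lay at that outer end. This locus, from 102658266 to 102659448, had 5.89 and 5.57 among females and 7.12 and 7.36 among males. At percentiles 71.5 and 75.0 in females and 74.8 and 79.1 in males, it stood higher in deleted cells of both sexes. It lies within 1 kb of the start of LOC115489466 as well. A locus of nearly the same strength lay 39.3 kb past the promoter-table start, from 102745216 to 102745935, near the start of Gm13872, with 6.52 and 5.01 among females and 7.66 and 6.72 among males. Both were in all groups, and the start between them was without a peak in every group. Another locus of all equal-length lists, 24.1 kb before that start, had 3.73 and 3.12 among females and 4.43 and 4.29 among males. Its percentile was 26.8 and 21.5 in females, lower in deleted cells, and 35.2 and 37.0 in males, higher.

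Further loci of Slc1a2 varied between lists. The locus 54.0 kb past the start had 3.02 and 2.96 in females and 2.87 and 4.43 in males. Its percentile was 9.60 and 16.4 in females and 4.66 and 40.0 in males, in each case for control before deleted cells. The locus was below the equal-length limit in control males. A peak 42.4 kb before the start was in both control lists, with 3.51 in females and 3.09 in males, and in neither deleted list. The locus 31.0 kb before the start missed the equal-length limit in control females, the one at 18.8 kb past it had no peak in deleted males, and the one at 37.7 kb was in the equal-length lists of control females and deleted males. Peaks 46.8 and 30.4 kb before the start were in control females alone and in deleted females alone.

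Of the channel genes, Aqp4 held the strongest site of the set. Aqp4 (chromosome 18, 15389394 to 15410982), which encodes the water channel of astrocyte endfeet, had a locus inside the gene from 15405087 to 15405494 that led all 59. Its fold enrichment was 9.92 and 9.99 among females and 11.5 and 11.4 among males. Its ranks of 88159 were 537 and 686 among females and 691 and 1673 among males. The site thus stood near the top of every list, at percentiles from 97.3 to 98.9, and neither end of the gene had a peak within 1 kb. A weaker locus nearby, from 15406875 to 15407266, had 3.69 and 2.73 in females and 3.69 and 2.90 in males. Its percentile was 25.8 and 10.1 in females and 19.2 and 5.08 in males, lower in deleted cells of both sexes. Another peak, from 15403554 to 15403719, was in both female lists and in neither male list.

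Gjb6 (chromosome 14, 57123301 to 57133611), a connexin gene of astrocyte gap junctions, had a single locus in all lists, over its start from 57133155 to 57133846. Fold enrichment was 3.49 and 4.01 among females and 4.31 and 3.53 among males. The order of the genotypes was thus opposite in the sexes: the percentile was 20.8 and 47.0 in females and 32.6 and 18.0 in males. A peak 0.697 kb inside the gene was in control males alone.

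The remaining genes encode soluble proteins. S100b (chromosome 10, 76253836 to 76261319), a calcium-binding protein of astrocytes, had its strongest locus over the start, from 76253528 to 76253934. Fold enrichment there was 5.11 and 4.02 among females and 5.71 and 4.54 among males. The percentile was 58.7 and 47.2 in females and 57.6 and 41.9 in males, lower in deleted cells of both sexes. A locus 4.35 kb inside the gene ran the other way, with 2.51 and 2.85 among females and 3.18 and 3.49 among males. It missed the equal-length limit in control females. A peak 7.09 kb from the start was in both control lists, with 2.80 and 3.32, and in neither deleted list, and one 1.94 kb inside was in both deposited control lists but among the 88159 strongest only in males. Weaker peaks 2.76 kb upstream and 11.0 kb past the start were in control females alone, and one at 11.8 kb in both deposited female lists. The summits of these 2 downstream loci lie in Dip2a.

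Aldh1l1 (chromosome 6, 90550768 to 90599171), an enzyme of folate metabolism widely used to mark astrocytes, had a start locus from 90550551 to 90550930. Fold enrichment was 5.45 and 4.06 among females and 6.87 and 5.95 among males. A locus 10.7 kb inside the gene had 5.47 and 4.65 among females and 6.74 and 5.47 among males, and it outranked the start locus in all groups by −log10 q. Both were lower in percentile in deleted cells of both sexes. The difference was -16.0 points in females and -7.53 in males at the start and -3.71 and -12.4 at the inner locus, so neither reached 10 points in both sexes. By pileup the start differed by -1.14 points in females and 1.01 in males and the inner locus by -0.18 and -1.48, so the direction at the start turned in males. Loci 14.8 and 24.8 kb inside the gene were in all equal-length lists. The one at 14.8 kb stood higher in deleted cells, by 7.00 points in females and 10.1 in males. By −log10 q it was higher by 16.1 and 26.7 points, and by pileup by 20.3 and 33.3. The one at 24.8 kb differed by 10.8 points in females and -5.53 in males. Peaks 18.2 and 27.6 kb inside were among the strongest 88159 in control males only and in males only, with a peak below the limit in control females at either site. A peak 0.509 kb upstream was in the equal-length list of deleted females and, weaker, in control females, and one 8.48 kb inside was in the deposited list of deleted females alone.

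Fabp7 (chromosome 10, 57784923 to 57788450), the brain fatty acid binding protein of radial glia, had 1 locus, the widest of the 59 with 1753 bp, and it covered the start. Fold enrichment was 5.58 and 5.66 among females and 5.89 and 6.56 among males. Its percentile was 66.9 and 76.1 in females and 60.7 and 71.6 in males, higher in deleted cells by 9.17 and 10.9 points. Ranked by −log10 q the differences were 4.04 and 6.82 points, and by pileup 1.61 and 3.43. In deleted males the locus held 2 peaks.

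**Figure D2:**
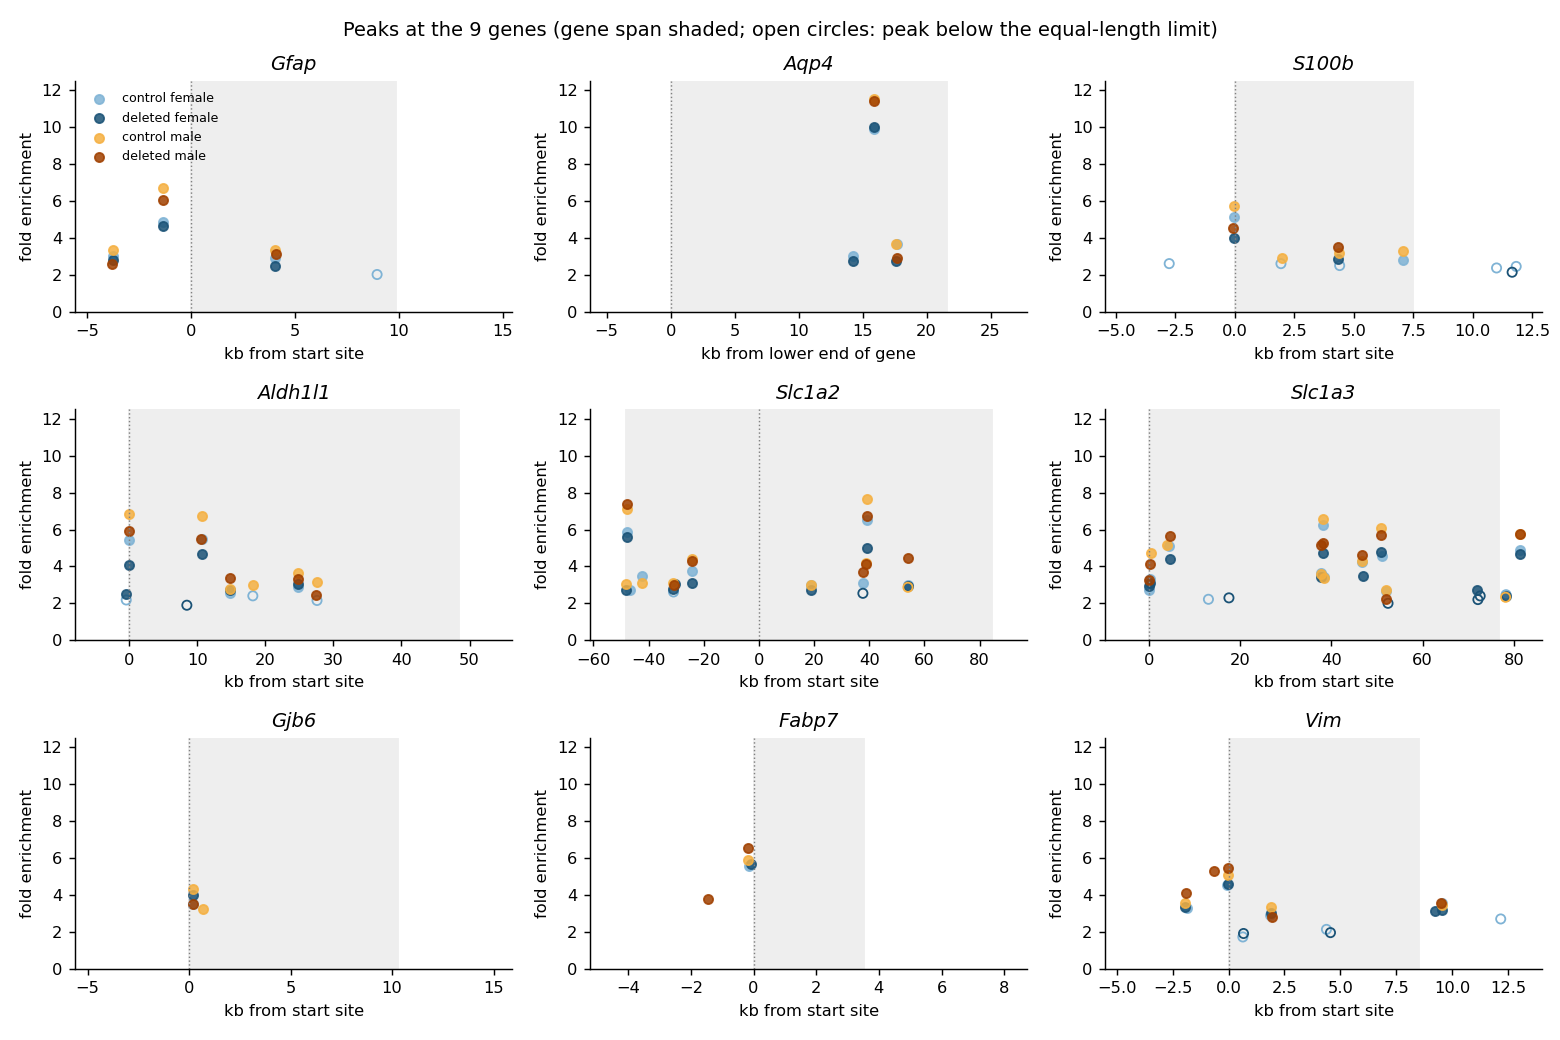
Fold enrichment (vertical axis) of every deposited peak against its distance in kb from the promoter-table start, or for Aqp4 from the lower end of the gene record (horizontal axis), coloured by list, with the gene record shaded. Filled points are among the 88159 strongest peaks of their list; the Aqp4 site at 9.92 to 11.5 stands above all others, and Gfap has points 1.36 kb upstream and none at its start.

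The comparison of deleted with control cells asked whether loss of Smchd1 went with a change at these genes. The number of peaks at the 9 genes was nearly the same. Control females had 36 and deleted females 38, for a log2 ratio of 0.08 and a 95% exact binomial interval of -0.62 to 0.78. Control males had 39 and deleted males 36, for a log2 ratio of -0.12 and an interval of -0.81 to 0.58. The intervals cover counting error only and treat the lists as independent. Gfap had 3 peaks in every list, Slc1a3 had 10 in both female and 9 in both male lists, and Vim had 4 in each control and 5 in each deleted list. S100b had 2 in both female lists and 4 and 2 in males. Differences of 1 or 2 peaks made up all changes by gene.

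**Figure D3:**
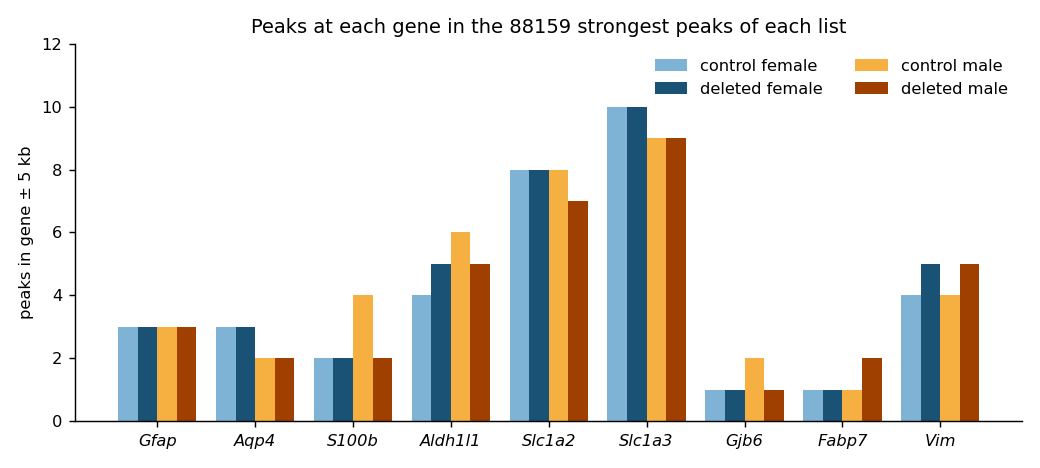
Number of peaks in each gene and 5 kb on both sides (vertical axis) for the 9 genes, 1 bar per list, among the 88159 strongest peaks. Slc1a3 has the most, 9 or 10, and Gjb6 and Fabp7 have 1 or 2.

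No strong site of these genes was present in one genotype only. Lost peaks were defined as those of the 44079 strongest control peaks that shared no base with any of the 88159 strongest deleted peaks, and gained peaks by the same rule with the lists exchanged. At the 9 genes 0 of 16 were lost in females and 0 of 17 in males, and 0 of 17 and 0 of 19 were gained. Counts of 0 allow shares of up to 18.8% and 17.6% lost and 17.6% and 15.8% gained, by the limit of 3 counts. The background over all peaks was 0.440% lost and 1.13% gained for females, and 1.09% and 0.837% for males. So few were called that the 9 genes cannot be set apart from other genes by this measure.

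In the equal-length lists, 26 of the 46 loci at these genes, or 56.5%, had a peak in every list, against 55.5% of all 114172 loci, so presence was close to that of loci in general. A further 13 loci were seen only below the equal-length limit. Of the 19 loci among the 44079 strongest peaks of any list, 15, or 78.9%, were so in all 4 lists, against 64.9% of 53530 such loci in all. By a rule chosen after the values had been seen, 3 of the 46, or 6.52%, were in both control lists and neither deleted list, those of S100b, Slc1a2 and Slc1a3 named above, against 3.64% of all loci. The reverse pattern was found in 0 of 46, which allows up to 6.52%, against 2.66%. Among deposited peaks of any strength these shares were 5.59% and 0.984% of all loci, and at the 9 genes 5 and 0 loci. The control list was the deeper in each sex, and the part of depth in this was not tested.

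Order of strength was compared over the 29 loci that had a peak in all 4 deposited lists, each placed as a percentile by fold enrichment among the 68514 such loci. Called shifted were loci that differed by at least 10 points the same way in both sexes. Lower in deleted cells were 3 of 29, the start of S100b, the locus of Slc1a3 38.1 kb from its start and the weaker locus of Aqp4, and higher was 1, the upstream locus of Vim. Over all loci 6.20% were lower and 6.00% higher, so the shares of these genes, 10.3% and 3.45%, rest on a few loci near the background. Ranked by −log10 q or by pileup in place of fold enrichment, the calls at S100b and Vim did not hold, and by pileup that at Slc1a3 did not either, while the Aqp4 locus was called lower by every measure. By −log10 q and by pileup, 2 other loci were called higher, 4.35 kb inside S100b and 14.8 kb inside Aldh1l1. They made up 6.90% of the 29, against 5.91% of all loci by −log10 q and 5.34% by pileup. By fold enrichment the median difference was 4.01 points in females and -1.31 in males, against 0.11 and 0.13 over all loci. Of the 29 loci, 7 were below 0 in both sexes, 10 above 0 in both, and 12 differed in sign between the sexes. Over all loci 28.4% were below 0 and 30.0% above 0 in both sexes, so the share that differed in sign was close to that of loci in general. For scale, 5% of all loci lay below -21.8 points and 5% above 21.1 in females, and below -22.6 and above 22.0 in males.

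**Figure D4:**
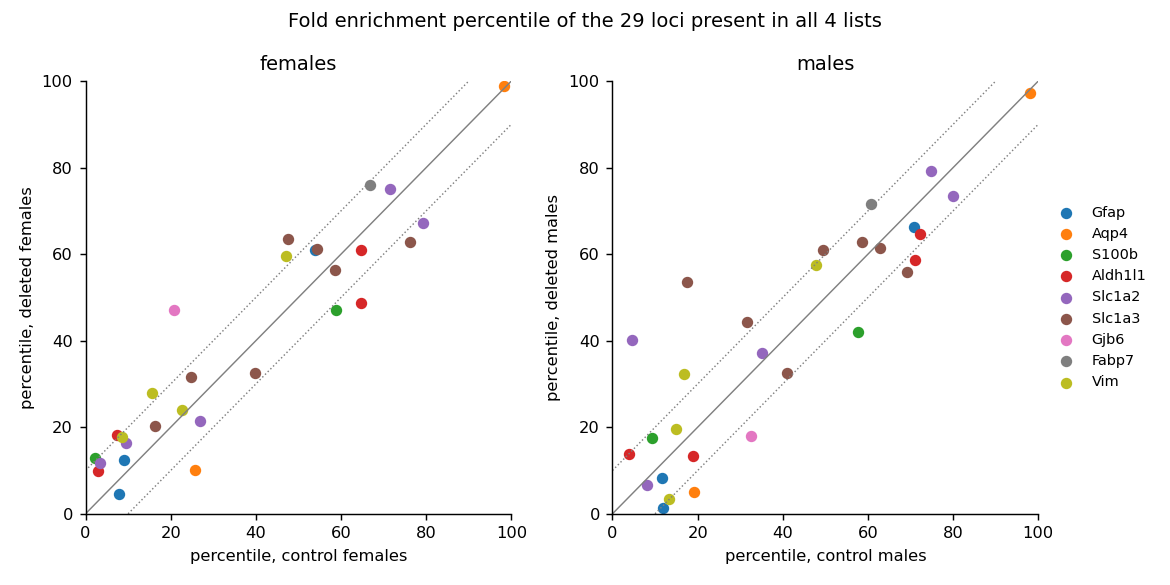
Percentile by fold enrichment of the 29 loci present in all 4 lists, in control (horizontal axis) and deleted cells (vertical axis), with females on the left and males on the right. The solid line marks equal percentiles and dotted lines 10 points to either side; the Aqp4 site stays above 97 in both panels, and Gjb6 lies above the band in females and below it in males.

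Wide loci, such as those over the starts of Vim and Fabp7, stood higher in deleted cells in the lists as a whole. Among 8650 loci over 1000 bp the median difference was 3.45 points in females and 1.87 in males, while among 30582 loci wider than 300 and up to 600 bp it was -1.16 and -0.54. The 5 loci of this set over 1000 bp had medians of 9.17 and 9.68, and its 15 loci of that middle class had 1.22 and -7.53. Ranked within their width class, the same 3 loci were called lower, 10.3% against 6.98% of all loci, and 4 were called higher, in S100b, Slc1a3, Vim and Aldh1l1, 13.8% against 6.92%. The balance of 3 lower and 1 higher thus depended on the ranking. Tag length differed between the lists, at 53 and 63 bp for control and deleted cells of females and 62 and 59 bp for those of males, and its part was not tested.

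Related genes of these cell types gave a similar picture. Other genes of astrocyte function, 21 in number and from Glul to Cd44, had 91 and 84 peaks in control and deleted cells of females and 85 and 88 in those of males. Genes named below for a peak lost in 1 sex were chosen after their values had been seen. All 21 had a peak in each list and 20 had one at a start, so open starts were more common there than among the 9 genes, a difference that was not tested. Of the strong peaks, females lost 0 of 47 and gained 0 of 47, while males lost 1 of 46, at Gja1, an astrocyte connexin gene, and gained 0 of 40. Of 74 ranked loci 5 were lower in both sexes, among them loci at Ndrg2, Mlc1, the GABA transporter gene Slc6a11 and Agt, and 2 were higher, at Gpr37l1 and the bicarbonate transporter gene Slc4a4. These shares were 6.76% and 2.70%, against 6.20% and 6.00% of all loci. The Slc6a11 locus had 4.83 and 3.79 in females and 6.20 and 4.80 in males. Slc4a4 had the most peaks, from 19 to 23, followed by the potassium channel gene Kcnj10 with 7 or 8.

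Other radial glia genes, 11 from Nes, which is also among the neural stem cell markers, to Pdpn, had 72 and 74 peaks among females and 79 and 82 among males, with 0 lost and 0 gained in either sex. Tested were 42 peaks for loss and 39 for gain in females, and 43 and 38 in males. With 0.440% to 1.13% of all peaks called lost or gained, these counts of 0 do not set the genes apart from other genes. Ddah1 with 13 to 16 peaks and Cdh2, the N-cadherin gene, with 12 or 13 held the most. Of 63 ranked loci, 1 at Cdh2 and 1 at Pdpn were lower and 1 at Ptprz1 was higher in both sexes, shares of 3.17% and 1.59% against 6.20% and 6.00% of all loci. The Cdh2 locus had 5.24 and 3.94 in females and 7.30 and 5.15 in males.

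Regulators of astrocyte genes, 25 in number, held 244 and 238 peaks among females and 247 and 255 among males. Nfia, an NFI factor gene needed for the onset of gliogenesis, had 41 to 49, and Zbtb20 had 25 to 37. In females 2 of 132 strong peaks were lost, at Nfia and Nfib, in males 1 of 128, at Zbtb20, and none were gained among 114 and 132, so no gene lost or gained a peak in both sexes. Over all peaks 0.440% were lost in females and 1.09% in males, and 1.13% and 0.837% were gained. Of 195 ranked loci 9 were lower in both sexes, or 4.62%, at Rfx4, Il6st, Smad4, Bmpr1b (3 loci), Nfia, Nfib and Nfix. Another 13, or 6.67%, were higher, at Hes1, Zbtb20, Lhx2, Id1, Bmpr1b, Nfia (2), Nfib (2), Jak1 (2), Hes5 and Smad1. Both shares are close to those of all loci, and Nfia, Nfib and Bmpr1b had loci in either direction. The largest difference among these calls in females was at Bmpr1b, a BMP receptor gene, where the locus from 142002266 to 142002612 on chromosome 3 had 5.32 and 2.96 in females and 4.79 and 3.58 in males.

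Markers of other cell types bear on what the cultures held. All 6 neural stem cell markers had peaks in each list, from 25 to 29 in all, at a median of 1.69 to 2.81 peaks per 10 kb, against 0.95 to 1.04 for the 9 genes and 0.53 to 0.54 for protein-coding genes. The 9 neuron markers had 74 to 89 peaks and the 8 oligodendrocyte lineage markers 32 to 38, with none at Mog in any list and none at Mag in either control list. The 6 microglia and blood markers had 10 to 12, with none at Itgam in any list and none at Cx3cr1 in males. The 5 endothelial markers had 13 to 17, with none at Cldn5 in control males, the 5 fibroblast markers 9 to 14 and the 8 housekeeping genes 18 to 23. Median peaks per 10 kb were 0.48 to 0.57 for neuron, 0.43 to 0.84 for oligodendrocyte lineage and 0.33 to 0.45 for microglia and blood markers. They were 0.34 to 0.56 for endothelial markers, 0.44 to 0.65 for fibroblast markers and 1.25 to 1.42 for housekeeping genes. Some markers held strong sites. The best peak of Tek, an endothelial marker, ranked from 71 to 327, and that of Syt1, a neuron marker, from 306 to 990. Those of P2ry12 and Ptprc ranked from 8964 to 14538. In rank, 7 of 57 neuron marker loci, or 12.3%, were lower and 5, or 8.77%, higher in deleted cells of both sexes, at Map2, Syt1, Rbfox3, Snap25 and Gad1. Over all loci the shares were 6.20% and 6.00%. Lower and higher were 0 and 1 of 24 neural stem cell loci, 2 and 1 of 28 oligodendrocyte lineage loci and 1 and 0 of 9 microglia and blood loci. For endothelium they were 1 and 0 of 13, for fibroblasts 0 and 1 of 9 and for housekeeping genes 0 and 2 of 18. A peak shows open chromatin and not expression, and the part of other cells in the values of the 9 genes was not tested.

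Genes most like the 3 with the most loci, Slc1a3, Slc1a2 and Aldh1l1, were found by the percentile of each gene's strongest peak in the 4 lists, among protein-coding genes with peak numbers within 2 in every list. For Slc1a3 they were Coro7 and Lmo1, at distances of 3.28 and 3.65 percentile points. For Slc1a2 they were Vxn and Asic1, at 2.05 and 2.30, and for Aldh1l1 Xdh and Ascc2, at 1.93 and 2.14. With 4 lists, from 421 to 2756 candidates and ranks that depend on depth, so small a distance is a description only.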

How the data were processed

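ATAC-seq peak lists of 4 groups were used, 1 list per group of pooled libraries. Per the file headers, the authors called peaks with MACS 2.1.0.20140616, without a control, using a shift of -75 bp, an extension of 150 bp, 1 tag kept per position and a q-value limit of 0.05. Pileup is a signal height deposited by the authors, fold enrichment is the authors' ratio over the local background, and −log10 q is the authors' significance value. The submitters' processing notes name Trim Galore 0.4.0, Bowtie2 2.2.5 and the build mm10, the same sequence as GRCm38. Start sites were taken 250 bases into each entry of the RefSeq promoter table, where 8 of 9 genes matched.

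Autosomal, X and Y peaks were used, and each list was cut to its 88159 strongest by −log10 q for peak numbers, presence and lost or gained peaks. Percentiles by fold enrichment used loci of the lists as deposited. All 9 genes were described, with each one's strongest locus by mean percentile, its start-site locus and every locus that shifted or was missing from an equal-length list. Of other lists, genes with a locus shifted in both sexes and the 2 with the most peaks were named, except 1 gene that is not reported here. The code for these calls was run on simulated lists with known changes, which checks the code and not the calls. The genes, lists and rules were chosen with earlier results of these data known. Depth differed, which limits weak peaks, and intervals cover counting error only. Alternatives changed list length, ranking value, overlap, flank, window and thresholds. Scripts ran under Python 3.11.15 with numpy 2.4.6, pandas 2.3.3, matplotlib 3.10.9 and scipy 1.17.1.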

Additional observations from a re-analysis of the deposited data

Results flagged for a closer look

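Aldh1l1 was singled out because its peak number moved in opposite directions in the sexes: female lists held 4 (control) and 5 (deleted), male lists 6 and 5, so the sexes differed by 2 peaks. With 1 list per group the difference was not tested.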

How the results depend on the processing

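No paired analysis was possible because each group is 1 list of pooled libraries, so the shared replicate numbers carry no values and leaving out a library could not be done. The log2 ratio of peak numbers stayed within its interval under all 10 alternatives, from -0.56 to 0.25 in females and from -0.31 to 0.16 in males. With the 44079 strongest peaks alone, the numbers were 16 and 17 in control and deleted females and 17 and 19 in males, and 15 loci, or 78.9% of those in any list, were in all 4. At a −log10 q of at least 10 there were 28 and 19 in control and deleted cells of females, the lowest of these log2 ratios, with 23 and 20 in those of males, and again 15 loci in all 4. Without the margin of strength, 6 were lost in females, 16.7% against 16.9% of all peaks, and 6 gained, 15.8% against 15.3%. In males 7 were lost, 17.9% against 18.7%, and 3 gained, 8.33% against 16.9%. As deposited, 13 were lost in females, 25.5% against 31.2% of all peaks, and 7 gained, 14.9% against 12.7%. In males 8 were lost, 19.5% against 25.5%, and 2 gained, 5.56% against 12.8%. At a −log10 q of at least 10, 9 were lost in females, 32.1% against 26.2%, and 7 in males, 30.4% against 22.7%. Gained at that limit were 0 of 19 in females, against 5.24% of all peaks, and 2 in males, 10% against 6.04%. By pileup 1 was lost in females, 5.00% against 1.71%. At 5 points 5 loci were lower, 17.2% against 13.1% of all loci, and 7 higher, 24.1% against 13.1%. At 20 points both counts were 0, against 1.20% and 1.52% of all loci. By −log10 q 2 were higher, 6.90% against 5.91%, by pileup 2, 6.90% against 5.34%, and within width classes 4, and the upstream Vim locus was among them only within width classes. The loci 4.35 kb inside S100b and 14.8 kb inside Aldh1l1 were among the higher by each of these rankings. Lower by −log10 q were 2 loci (5.51% of all), without the start of S100b, and lower by pileup were 2 (4.75% of all), the weaker Aqp4 locus and the start of Slc1a3 in place of those of S100b and of Slc1a3 at 38.1 kb. Loci in both control lists only, a rule added after seeing the data as was the width class, numbered 5 as deposited and 0 among the 44079 strongest. Genes with a start-site peak in all 4 lists numbered from 4 to 7 under all 6 alternatives, with 7 when Slc1a2 was judged at the ends of its gene record. A window of 2 kb also gave 7, as Gfap then had one in all 4 lists. At a −log10 q of at least 10, Slc1a3 had none in deleted females and Gjb6 none in deleted males. Among the 44079 strongest peaks, Slc1a3 had one in males only and Gjb6 in deleted females only. The cause of these changes was not tested, beyond the smaller or larger number of peaks that each setting admits.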
